A study of Mus musculus with 29 samples.

Results

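CpG-dense windows that were unmethylated in unchallenged mouse lung were examined across maternal exposure to fine particulate matter and ovalbumin challenge. A window was a member when it lay on an autosome (chromosomes 1 to 19), was at most 1500 bp long, had a %DNAm score in all 29 libraries and averaged under 10% over the 14 unchallenged libraries. The rule gave 16498 members of the 260686 windows in the table, carrying 9593 gene names. They were 82.3% of the 20035 complete autosomal windows of that length, and the other 3537 such windows (median 31.6% in unchallenged lung) served as the comparison. All 16498 members had enough values to be tested.

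Whole-genome methyl-sequencing, which reads methylated cytosines after enzymatic conversion of the unmethylated ones, was performed on lung homogenates (labelled RML) of BALB/c offspring that the series gives as 13-week-old females. Dams had received PM2.5 by the nose before mating, through gestation and until weaning, or saline alone (Sham), and offspring were not dosed with particles themselves. Offspring were challenged with ovalbumin (OVA), the egg white allergen of this model of allergic airways disease, or given phosphate-buffered saline. The groups were Sham (saline dams, no OVA, n = 7), Sham-OVA (saline dams, OVA, n = 7), PM (exposed dams, no OVA, n = 7) and PM-OVA (exposed dams, OVA, n = 8). The labels do not name the dam or litter of an animal, so p-values treat the offspring as independent. Values are percentages over windows of a fixed number of CpG positions. Members held a median of 50 CpG dinucleotides on the reference, which is 100 cytosines over both strands, so a short window is one in which CpGs lie close together.

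In mammals most CpG dinucleotides are methylated, and the dense clusters known as CpG islands are the exception. Islands at gene starts are kept free of methylation in most tissues by CpG-binding proteins, active chromatin and the TET enzymes, whereas the islands of silent developmental regulators are often held by Polycomb complexes instead. Gain of methylation at an island is usually a property of particular cell types or of ageing and tumours. In a homogenate of whole tissue, a change in the mixture of cells and a change of methylation within cells cannot be told apart.

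The sequences below show what such windows look like. Each is the central 300 bases on the + strand of GRCm38, with every CpG in capitals and all else in lower case. The first 3 windows rose by over 10 points after OVA in both kinds of offspring. They are chr6:52175810-52176109 (a window of Gm28308, in introns of the Hoxa3 locus, with 33 CpGs), chr4:44664139-44664438 (within Pax5, 39 CpGs) and chr6:145048322-145048621 (at the start of Bcat1, 23 CpGs).
Gm28308: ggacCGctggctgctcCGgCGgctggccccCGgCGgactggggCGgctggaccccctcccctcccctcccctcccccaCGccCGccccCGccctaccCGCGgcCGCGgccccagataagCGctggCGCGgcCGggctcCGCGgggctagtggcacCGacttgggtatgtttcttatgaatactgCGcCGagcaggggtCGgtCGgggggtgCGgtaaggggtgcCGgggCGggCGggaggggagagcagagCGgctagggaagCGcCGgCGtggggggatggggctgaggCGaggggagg
Pax5: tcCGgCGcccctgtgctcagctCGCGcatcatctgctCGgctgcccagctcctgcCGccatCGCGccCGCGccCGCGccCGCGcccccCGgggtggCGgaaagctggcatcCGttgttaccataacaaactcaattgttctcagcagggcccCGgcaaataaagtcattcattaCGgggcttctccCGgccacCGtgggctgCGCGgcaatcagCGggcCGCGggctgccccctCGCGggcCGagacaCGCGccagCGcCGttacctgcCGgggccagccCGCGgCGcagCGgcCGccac
Bcat1: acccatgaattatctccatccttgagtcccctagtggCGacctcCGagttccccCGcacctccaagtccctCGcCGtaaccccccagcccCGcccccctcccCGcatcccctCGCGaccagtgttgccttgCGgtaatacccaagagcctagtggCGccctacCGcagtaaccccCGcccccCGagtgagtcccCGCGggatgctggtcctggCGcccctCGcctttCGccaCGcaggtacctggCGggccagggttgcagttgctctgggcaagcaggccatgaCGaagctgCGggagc

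Another 2 windows rose by over 10 points in Sham offspring. They are chr9:64084909-64085208 (in an intron of the non-coding Scarletltr, 23 CpGs) and chr11:96341391-96341690 (Hoxb3, where only 5 CpGs fell in the central stretch).
Scarletltr: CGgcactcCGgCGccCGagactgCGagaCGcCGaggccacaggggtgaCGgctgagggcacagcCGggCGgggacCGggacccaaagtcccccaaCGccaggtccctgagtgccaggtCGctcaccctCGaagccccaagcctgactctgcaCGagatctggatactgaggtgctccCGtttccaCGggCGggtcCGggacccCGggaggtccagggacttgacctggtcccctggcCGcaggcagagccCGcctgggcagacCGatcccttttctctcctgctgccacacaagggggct
Hoxb3: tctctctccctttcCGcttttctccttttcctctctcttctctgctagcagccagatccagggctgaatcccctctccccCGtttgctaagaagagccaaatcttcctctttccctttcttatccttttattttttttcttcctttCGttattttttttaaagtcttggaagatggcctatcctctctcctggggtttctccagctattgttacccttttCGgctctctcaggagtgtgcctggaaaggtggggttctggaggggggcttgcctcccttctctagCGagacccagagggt

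The last pair is shown for contrast. The window of Lrrfip1 at chr1:91053771-91054070 (7 CpGs) had one of the largest falls, and that of Tagap1 at chr17:6961244-6961543 (19 CpGs) was listed at 0 in all 29 libraries.
Lrrfip1: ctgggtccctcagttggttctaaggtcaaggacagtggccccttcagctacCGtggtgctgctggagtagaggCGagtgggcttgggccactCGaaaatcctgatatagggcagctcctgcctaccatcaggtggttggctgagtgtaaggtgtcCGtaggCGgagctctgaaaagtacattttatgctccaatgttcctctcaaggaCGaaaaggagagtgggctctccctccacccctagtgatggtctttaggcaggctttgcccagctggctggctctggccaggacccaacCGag
Tagap1: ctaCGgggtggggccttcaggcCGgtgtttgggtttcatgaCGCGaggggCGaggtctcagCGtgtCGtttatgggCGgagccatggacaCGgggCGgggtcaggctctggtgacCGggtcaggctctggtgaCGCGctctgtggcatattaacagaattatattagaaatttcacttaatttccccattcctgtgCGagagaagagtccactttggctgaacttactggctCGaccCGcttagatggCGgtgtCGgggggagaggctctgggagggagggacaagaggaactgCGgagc

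Members differed from the other dense windows in sequence and position, which the rule used only through window length. Their median length was 567 bp against 1216 bp. With a fixed number of CpGs per window, this also sets the median CpG density (8.73 per 100 bp against 4.10). Their median GC content was 66.0% against 56.5%. A GENCODE M21 transcript start lay inside 66.5% of members and 40.7% of the other dense windows, and the median distance from the window's centre to the nearest start was 194 bp against 800 bp. The GC box (GGGCGG on either strand), a binding sequence of Sp1-type factors, was found in the central 200 bases of 47.5% of members and 16.8% of the others. The CCAAT box (CCAAT) was found in 15.1% against 19.6%, and TATAAA in 2.52% against 5.43%. These are matches of letters and were not adjusted for GC content. Members covered a median of 47.7% exonic bases, and 90.9% carried the name of a protein-coding gene.

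Members lay in 9745 runs, of which 5386 held 1 member and 1551 held 3 or more. Within a run, neighbouring members lay at most 200 bp apart. The longest runs had 9 members. One spanned 7372 bp at Dmrta2os (chr4:109976348-109983719) and others lay at Skor1 and Pantr1. Across members, baseline methylation fell with CpG density (Spearman's rho of -0.54 over 16498 members, a description over neighbouring windows of the same libraries). Members centred within 100 bp of a transcript start (5267 members) had a median of 0.317% in unchallenged lung, whereas those centred 1000 to 5000 bp away (1036 members) had a median of 2.45%. At the 3102 edges of runs of 3 or more members, the median Sham level was 0.591% in the outermost member, 43.1% in the next window outside (2429 windows) and 74.8% in the window after that (1945 windows). The rule itself sets this step, since a run ends where a window is no member, and the next windows outside were long (median 3432 bp).

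**Figure D1:**
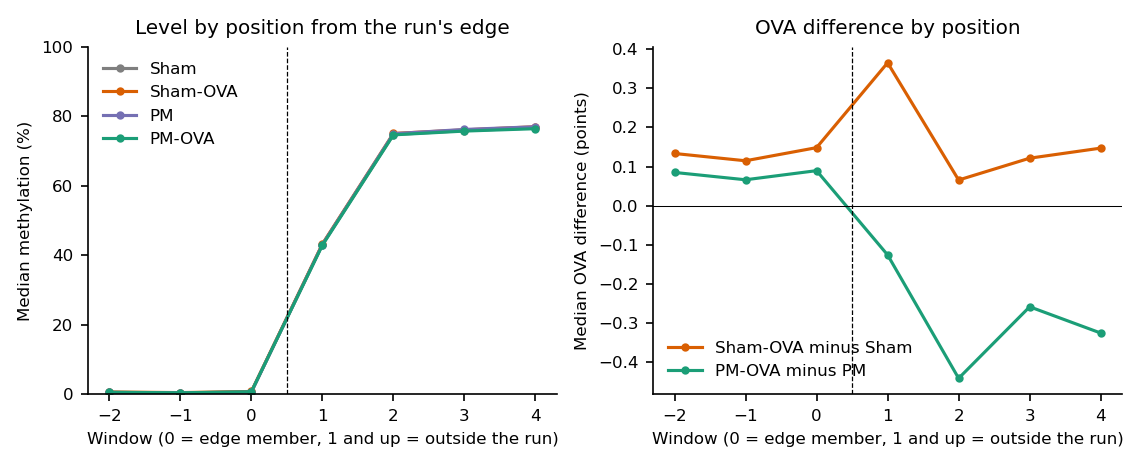
Median %DNAm (left, in %) and median OVA difference (right, in percentage points) by position from the edge of runs of 3 or more members, where 0 is the outermost member, negative positions lie inside the run (in a run of 3, position -2 is the opposite edge) and positive ones outside. Lines join medians over windows for each group, and the 4 groups lie on top of each other on the left, rising from 0.591% to 43.1% and 74.8% in Sham.

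Members were almost free of methylation, as the rule required. Over the 14 unchallenged libraries the median member averaged 0.487%, 10851 members (65.8%) averaged under 1%, 4116 averaged 1 to under 5% and 1531 averaged 5 to under 10%. The share of cytosines that escaped conversion was not analysed here, so levels under 1% cannot be told apart from it. The members nearest the limit were windows of Uck2 (9.994%), Galnt2l (9.994%, at the start of Spata2l) and Snap91 (9.985%). The nearest windows above it, which are not members, were in Adamtsl5 (10.003%), Arl5a (10.01%) and Dab2ip (10.01%). In a separate check on the file's gene names, 97.5% of members overlapped the gene they name in GENCODE M21. The exceptions included all 127 members labelled Galnt2l, of which 74 held a transcript start of another gene. The 43 members labelled Fgfr2 all overlapped that gene.

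A single library stood apart. Of the 1230 Y-linked windows, 1224 were scored in Sham replicate 1 and 29 to 46 in each other library, although the offspring are described as female. It was kept in its group, members are autosomal, and the counts of called and passing members, and those of the 3 lists with the most rises, are also given without it. In 16059 members (97.3%) no stretch of 100 bases recurred on the reference chromosomes, and in 61 members the repeated stretches were at least as many as the unique ones, where reads of different copies cannot be separated. The table holds no read counts, so the depth behind a value is unknown here.

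The first comparison asked whether the unmethylated state held after OVA. It held nearly everywhere, with a small upward displacement. Mean methylation over the members, given per library, ranged from 1.41 to 1.67% in Sham (median library 1.476%), from 1.78 to 1.91% in Sham-OVA (1.83%), from 1.44 to 1.60% in PM (1.49%) and from 1.69 to 1.81% in PM-OVA (1.79%). All 7 Sham-OVA libraries lay above all 7 Sham libraries, and all 8 PM-OVA libraries lay above all 7 PM libraries. The means were 1.497% ± 0.0900 (SD, n = 7), 1.84% ± 0.0568 (SD, n = 7), 1.51% ± 0.0525 (SD, n = 7) and 1.77% ± 0.0475 (SD, n = 8), in that order. Since the rule had chosen low unchallenged values, the same was computed for windows chosen on the other kind of offspring. With 16500 windows chosen on PM libraries, Sham libraries averaged 1.501% ± 0.0897 (SD, n = 7) and Sham-OVA libraries 1.84% ± 0.0564 (SD, n = 7). With 16508 windows chosen on Sham libraries, PM libraries averaged 1.52% ± 0.0528 (SD, n = 7) and PM-OVA libraries 1.78% ± 0.0477 (SD, n = 8). Neither pair of groups overlapped. The median over members overlapped between groups, at 0.446% ± 0.0794 in Sham and 0.590% ± 0.0918 in Sham-OVA (SD, n = 7 each), and 0.455% ± 0.0663 in PM (SD, n = 7) and 0.539% ± 0.0467 in PM-OVA (SD, n = 8).

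Most members shifted slightly and few reached 10%. The OVA difference was above 0 in 64.5% of members in Sham and 60.2% in PM, and in 64.5% and 60.2% of the windows chosen on the other kind of offspring. Between 76 and 166 members reached 10% in a Sham library and between 270 and 397 in a Sham-OVA library. The corresponding ranges were 76 to 154 in PM and 204 to 324 in PM-OVA. The rule limits the unchallenged counts. Among windows chosen on the other kind of offspring the ranges were 91 to 175 in Sham and 273 to 401 in Sham-OVA, and 94 to 169 in PM and 220 to 336 in PM-OVA, again without overlap. No library had more than 1 member at 20% or more without OVA, and up to 10 had that level in a Sham-OVA library and up to 6 in a PM-OVA library. Members listed at 0 made up 17.5 to 24.5% in Sham and 14.5 to 25.2% in Sham-OVA, and these ranges overlapped. The other dense windows were also higher after OVA, with medians of 31.6% ± 0.797 in Sham and 35.4% ± 0.513 in Sham-OVA (SD, n = 7 each).

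**Figure D2:**
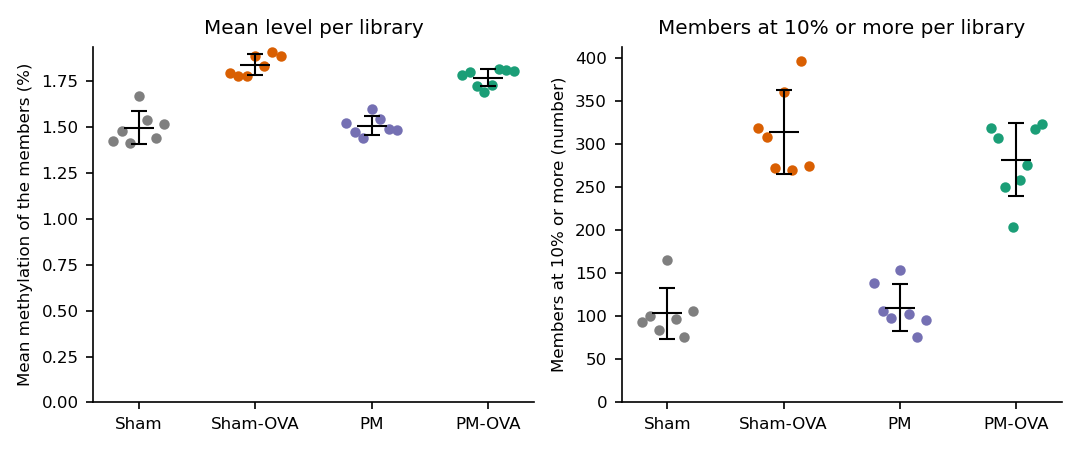
Mean %DNAm over the 16498 members (left, in %) and number of members at 10% or more (right) in each library, by group. Points are libraries and bars are mean ± SD (n = 7, 7, 7 and 8), and on both sides every OVA library lies above every unchallenged library of the same kind of offspring.

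Each window was tested with limma, and a window was called when its Benjamini-Hochberg adjusted p was under 0.05 and its group means differed by at least 10 percentage points. OVA in Sham offspring called 6 members, all higher, against 0.775% of all tested windows (0.479% higher and 0.296% lower). OVA in PM offspring called 4 members, all higher, against 0.584% of all tested windows (0.263% higher and 0.321% lower). Among the other 3537 dense windows, 196 were called higher and 19 lower in Sham, and 141 higher and 27 lower in PM. Since the unchallenged mean of a member is under 10%, the rule leaves practically only the upward direction for such calls. In all, 7 members were called in either kind of offspring and 3 in both. Without Sham replicate 1 the counts were again 6 and 4.

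Without a minimum difference, 3263 members had a limma adjusted p under 0.05 for OVA in Sham, of which 2861 (17.3%) were higher and 402 (2.44%) lower, against 13.3% higher and 22.3% lower (35.6% in all) of all tested windows. For OVA in PM there were 3035, of which 2545 (15.4%) were higher and 490 (2.97%) lower, against 9.26% higher and 34.8% lower (44.1% in all) of all tested windows. The other dense windows rose more often than members, with 28.3% higher and 10.3% lower in Sham and 21.6% higher and 14.1% lower in PM. At an unadjusted p under 0.05 there were 4438 and 3907 members, 26.9% and 23.7%, against 45% and 51.4% of all tested windows. On the percent scale 11.5% of members (Sham) and 10.4% (PM) were higher, against 13.3% and 9.13% of all tested windows, so that in Sham the order of the upward shares turned round, and 1.22% and 1.45% were lower, against 22.9% and 35.4%. The median member differed by 0.112 points (Sham) and 0.0646 points (PM), compared with -0.414 and -1.03 points over all tested windows. In Sham, 13831 members (83.8%) differed by less than 1 point. When windows were chosen on the other kind of offspring, 3260 (2855 higher) and 3036 (2546 higher) passed, and 7 and 4 were called. Without Sham replicate 1 the counts were 3013 (2620 higher) and 3058 (2562 higher). When each library was centred on its median over windows, there were 3571 (3312 higher) and 3794 (3611 higher), which is 20.1% and 21.9% of members higher against 18.3% and 18.9% of all tested windows. The share of higher members among those that passed went from 87.7% to 92.7% in Sham and from 83.9% to 95.2% in PM.

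Of the members that passed in Sham, 61.2% also passed in PM, and of those that passed in PM, 65.8% also passed in Sham. In all, 1799 were higher in both, 192 lower in both and 5 opposite. Over all tested windows the shares were 76.7% of those that passed in Sham and 62.0% of those that passed in PM. Across members, the Sham and PM differences, which share no library, correlated with r = 0.82 (16498 members, a description over windows that are not independent).

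**Figure D3:**
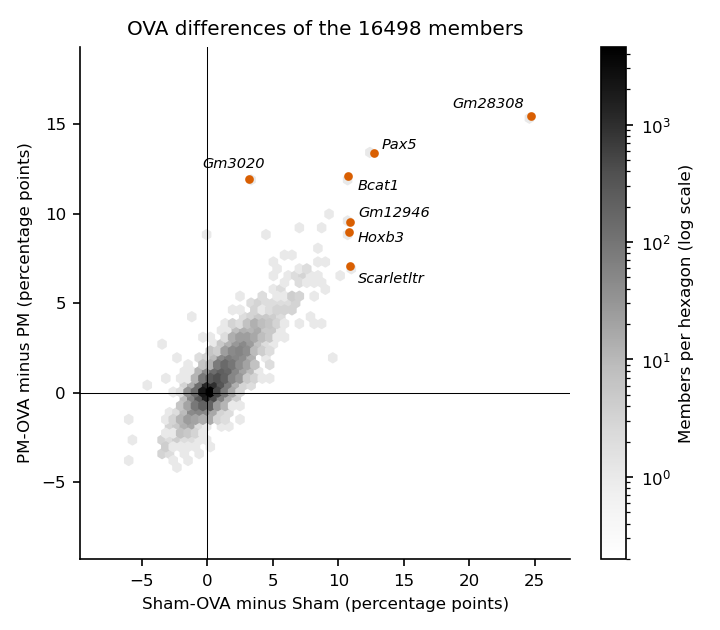
OVA difference of each of the 16498 members in Sham (x axis) and PM offspring (y axis), both in percentage points, with hexagons shaded by the number of members on a log scale. Orange points are the 7 members called in either kind of offspring, from Gm3020 at 3.14 and 11.9 points to Gm28308 at 24.7 and 15.4 points.

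Shares of members that rose differed between classes of unchallenged level. OVA in Sham raised 876 of the members under 1% (8.07%), 1536 of those at 1 to under 5% (37.3%) and 449 of those at 5 to under 10% (29.3%). In PM the shares were 6.84%, 33.9% and 26.5%. These classes use the same libraries as the difference. With windows and classes taken from the other kind of offspring, the shares were 7.63%, 37.4% and 30.1% in Sham and 6.80%, 33.1% and 27.1% in PM, with median differences of 0.0557, 0.576 and 0.503 points in Sham and 0.0235, 0.435 and 0.343 points in PM. Members without a transcript start rose more often than those holding one, at 24.1% (1333 of 5535) against 13.9% (1528 of 10963) in Sham and 21.4% against 12.4% in PM. Among the 1236 members with no start and a centre over 1000 bp from one, 36.5% rose in Sham and 32.5% in PM, and these had a higher unchallenged median (2.43%) than members holding a start (0.415%). These shares are descriptions, since classes differ in level and neighbouring windows are not independent.

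The 7 called windows included ones at regulators of development and of B cells and at a metabolic enzyme. The window of Gm28308 (ENSMUSG00000101298, chr6:52175751-52176167), a predicted gene of the Hoxa cluster, lay in introns of Hoxa3 and of the antisense Hoxaas3 and had the largest rise of any member. It measured 1.22, 8.43 and 19.1% (lowest, median and highest library) in Sham and 11.7, 32.2 and 47.1% in Sham-OVA. In PM it measured 0, 2.91 and 14.4%, and in PM-OVA 17.3, 19.7 and 34.9%. The groups overlapped in Sham offspring and did not in PM offspring. OVA raised it by 24.7 points in Sham (log2 ratio 2.58, SE 0.57, limma adjusted p = 0.000807) and by 15.4 points in PM (log2 ratio 2.59, SE 0.55, limma adjusted p = 0.000406).

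Pax5 (ENSMUSG00000014030) encodes the factor that commits lymphoid progenitors to the B cell lineage. Its window at chr4:44664105-44664471, which is mostly intronic and holds the start of the antisense Gm12462, had the smallest adjusted p of any member for OVA in Sham. It measured 0.794, 1.36 and 3.27% (lowest, median and highest) in Sham and 7.76, 14.1 and 18.5% in Sham-OVA. In PM it measured 1.28, 1.62 and 3.83%, and in PM-OVA 9.21, 14.8 and 24.0%. No OVA library reached down to an unchallenged one. The rise was 12.7 points in Sham (log2 ratio 2.74, SE 0.24, limma adjusted p = 5.24e-09) and 13.4 points in PM (log2 ratio 2.57, SE 0.24, limma adjusted p = 4.89e-09). Pax5 had 6 members in all, and only this one passed in either kind of offspring.

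Bcat1 (ENSMUSG00000030268) encodes the cytosolic aminotransferase of branched-chain amino acids. Its window at chr6:145048162-145048780 holds the gene's start. It measured 1.96, 3.12 and 10.2% (lowest, median and highest) in Sham and 11.8, 13.9 and 30.3% in Sham-OVA. In PM it measured 2.65, 5.96 and 8.42%, and in PM-OVA 10.4, 17.0 and 25.4%. The groups were separate in both kinds of offspring, with rises of 10.7 points in Sham (limma adjusted p = 6.94e-05) and 12.1 points in PM (limma adjusted p = 4.38e-05). Without Sham-OVA replicate 6, its highest library, the rise in Sham was 8.32 points and fell short of the minimum.

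Another 3 windows were called in Sham and had smaller rises in PM. The window of Hoxb3 (chr11:96340951-96342129), which holds the start of the non-coding Gm11536, went from 9.89% ± 1.90 to 20.7% ± 2.55 in Sham offspring (SD, n = 7 each). Its lowest Sham-OVA library (17.7%) was above its highest Sham library (11.6%), and its lowest PM-OVA library (15.8%) above its highest PM library (15.2%). It rose by 10.8 points in Sham (limma adjusted p = 2.03e-06) and 8.97 points in PM (limma adjusted p = 4.11e-06). The window of the antisense Gm12946 (chr4:126147428-126148552) holds the start of Eva1b and was exonic over 1117 of its 1125 bp. It measured 5.76, 9.05 and 13.1% (lowest, median and highest) in Sham and 11.9, 20.4 and 23.8% in Sham-OVA, which overlapped. It rose by 10.9 points in Sham (limma adjusted p = 9.35e-06) and 9.55 points in PM (limma adjusted p = 6.94e-06), where leaving out PM replicate 4 or PM-OVA replicate 3 brought it to 10.5 and 10.1 points. The window of the non-coding Scarletltr (chr9:64084639-64085478), 4297 bp from the nearest start, measured 6.09, 7.33 and 8.33% in Sham and 13.5, 18 and 24.3% in Sham-OVA, without overlap. It rose by 10.9 points in Sham (limma adjusted p = 2.17e-07) and 7.05 points in PM (limma adjusted p = 3.75e-05), and by 9.87 points in Sham without Sham-OVA replicate 1.

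In PM alone, and only with PM-OVA replicate 3 included, a call was made for the window of Gm3020 (ENSMUSG00000079402, chr14:3651925-3652447). It measured 0, 0.617 and 3.19% (lowest, median and highest) in PM and 1.53, 3.50 and 48.8% in PM-OVA, so the groups overlapped. The rise of 11.9 points (limma adjusted p = 0.00242) became 6.79 points without PM-OVA replicate 3. The window still passed the adjusted p with any library left out (limma adjusted p at most 0.0067). In addition, 84.4% of its stretches of 100 bases recurred elsewhere, with up to 11 copies, and reads of those copies cannot be separated. Its interaction had a limma adjusted p of 0.705.

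**Figure D4:**
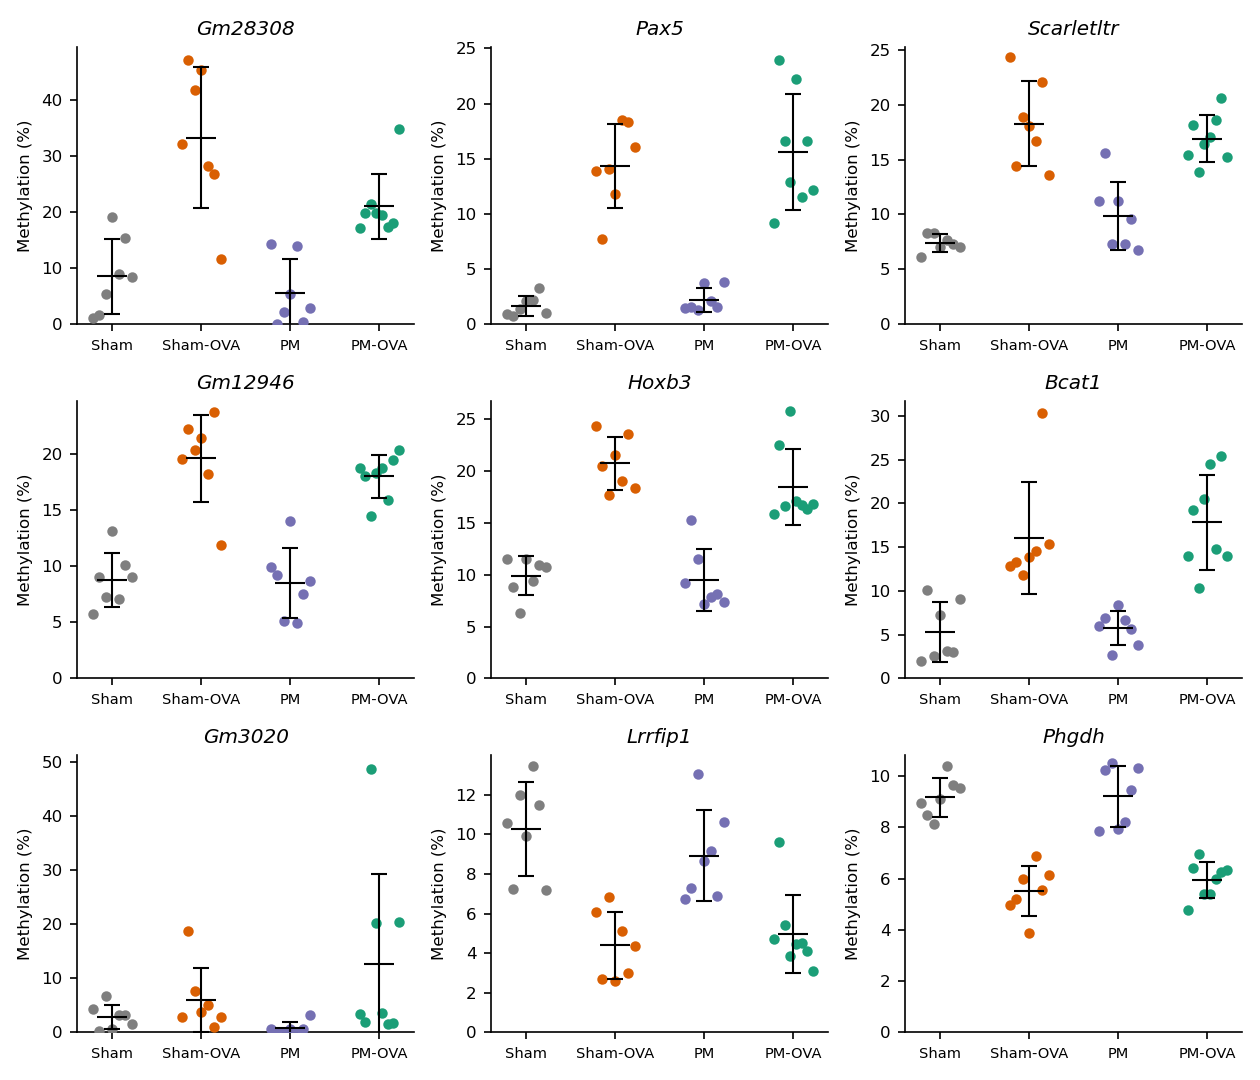
%DNAm (y axis, in %) of the 7 members called in either kind of offspring and of Lrrfip1 and Phgdh, which fell in both. Points are libraries, bars are mean ± SD (n = 7, 7, 7 and 8, with bars below 0 not drawn), and the Pax5 panel runs from at most 3.83% without OVA to at least 7.76% with it.

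Falls of 10 points are all but impossible for members, since the rule holds their unchallenged mean under 10%, so falls are given by size among those that passed. The window of Lrrfip1 (chr1:91053307-91054533), at the start of a gene whose product binds nucleic acids, measured 7.17, 10.6 and 13.5% (lowest, median and highest) in Sham and 2.60, 4.37 and 6.85% in Sham-OVA. The groups were separate and it fell by 5.87 points (limma adjusted p = 5.56e-05). Among PM offspring the level fell by 3.94 points (limma adjusted p = 0.00155), with overlap through PM-OVA replicate 2 at 9.60%. Phgdh, which encodes the enzyme at the head of serine synthesis, fell in an intronic window (chr3:98338362-98339368) from 9.17% ± 0.758 to 5.52% ± 0.965 in Sham offspring (SD, n = 7 each, limma adjusted p = 1.43e-06). In PM offspring it fell from 9.22% ± 1.19 (SD, n = 7) to 5.94% ± 0.701 (SD, n = 8, limma adjusted p = 5.29e-06), and the lowest unchallenged library (7.87%) lay above the highest OVA library (6.96%).

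The other falls named by the rule passed the test in 1 or both kinds of offspring. Mpig6b (chr17:35065303-35066019, at the start of Ly6g6c) fell by 6.09 points in Sham (limma adjusted p = 0.00149), and in PM the difference was -1.65 points (limma adjusted p = 0.46). That PM value ranged from -2.64 (without PM replicate 1) to -0.776 points with a library left out. The interaction, which tests the difference between the kinds of offspring, passed at none of these 5 windows, with limma adjusted p of 0.637 (Mpig6b) to 0.843. Ptprs, which encodes a receptor tyrosine phosphatase, fell by 3.71 points in PM (limma adjusted p = 0.000925) and 2.36 points in Sham (limma adjusted p = 0.0385). Its Sham result failed the threshold in 9 fits with a library left out, reaching a limma adjusted p of 0.107 without Sham-OVA replicate 6. With centred libraries it failed as well (limma adjusted p = 0.0677). Scarf2 fell by 3.75 points in PM (limma adjusted p = 0.0285). That result failed in 6 fits with a library left out, reaching a limma adjusted p of 0.0717 without PM-OVA replicate 6, and in 2 other settings. The value of Scarf2 in Sham was -1.52 points (limma adjusted p = 0.591). With a library left out it ranged from -2.40 (without Sham replicate 2) to -1.01 points. A window labelled Galnt2l over a 5S ribosomal RNA gene (chr8:123548210-123549173) fell by 4.35 points in PM (limma adjusted p = 0.0203, and 0.0535 without PM-OVA replicate 1) and measured -2.17 points in Sham (limma adjusted p = 0.264), with 87.3% of its stretches of 100 bases repeated in up to 49 copies. The non-coding 2900097C17Rik, with 70.3% repeated, fell by 5.94 points in Sham (limma adjusted p = 0.0108), and the value in PM was -2.56 points (limma adjusted p = 0.106, and 0.0247 without PM-OVA replicate 6).

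The gene lists differed in the share of members that rose and in unchallenged level, and differences between lists were not tested. All were described by counts beside the 17.3% (Sham) and 15.4% (PM) of all members that rose. The 37 members of housekeeping genes, which every cell expresses, had 0 higher and 1 lower in Sham and 0 either way in PM at a limma adjusted p under 0.05. At an unadjusted p under 0.05 there were 0 higher and 2 lower in Sham and 0 either way in PM. Of these members 32 were under 1% without OVA, a level at which 8.07% of all members rose in Sham and 6.84% in PM. Their median unchallenged level was 0.221%, and their median OVA differences were -0.0288 points in Sham and 0.0382 points in PM. The 1 lower member was in Ywhaz, named after its values were seen. For each list, the members with the highest and lowest OVA difference averaged over Sham and PM are named, and another member could lie further out in 1 kind of offspring. For housekeeping genes these were in Aldoa (0.268 points in Sham, limma adjusted p = 0.181) and Ppia (-0.453 points in Sham, limma adjusted p = 0.0857). Both are at gene starts.

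Of the 49 members of the lung identity genes, 27 (55.1%) rose in Sham and 19 (38.8%) in PM, and 0 fell in either, with medians of 0.770 and 0.638 points. These were 11 and 10 of the 20 genes with a member, and 9 genes in both. Without Sham replicate 1 there were 25 and 18 higher, and with centred libraries 28 and 27. Over all alternative fits the rises ranged from 20 to 28 in Sham and 15 to 27 in PM. Within the 27 list members at 1 to under 5% without OVA, 17 (63.0%) rose in Sham, against 37.3% of all members at that level. The shares in Sham were 35.3% against 8.07% under 1% (17 members) and 80.0% against 29.3% at 5 to under 10% (5 members). The largest rise on average was in Foxa1, a pioneer factor of endodermal epithelium, in an exonic window (chr12:57542564-57543104). It measured 3.17, 4.14 and 5.12% (lowest, median and highest) in Sham and 6.34, 7.97 and 9.58% in Sham-OVA. In PM it measured 2.93, 3.95 and 5.06%, and in PM-OVA 6.17, 7.46 and 9.49%. The groups were separate in both kinds of offspring, with rises of 4.02 points (limma adjusted p = 8.53e-07) and 3.52 points (limma adjusted p = 1.15e-06).

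Further genes of that list were singled out after their values were seen. Nkx2-1, the factor that specifies lung epithelium, had 4 of its 5 members higher in Sham and 3 in PM, with a mean level over its members of 1.60% in Sham, 3.29% in Sham-OVA, 1.63% in PM and 2.69% in PM-OVA. Foxa2, another epithelial factor, had 3 of 4 higher in Sham and 2 in PM. Among endothelial genes, Cldn5, a tight junction claudin, had both members higher in each kind of offspring (6.18% in Sham, 9.59% in Sham-OVA, 6.62% in PM and 8.70% in PM-OVA), and Sox17 had 2 of 4 higher in Sham and 4 in PM. Pdgfra, a receptor of lung fibroblasts, had 3 of 3 higher in Sham and 1 in PM. In 8 of the 20 genes with a member, namely Epcam, Cdh1, Hopx, Etv5, Klf4, Foxj1, Erg and Col1a1, 0 members passed in either kind of offspring. The member of Col1a1, a fibrillar collagen gene, had the lowest difference of the list, averaged over both kinds of offspring, at -0.106 points in Sham (limma adjusted p = 0.901) and -0.672 points in PM (limma adjusted p = 0.336).

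Developmental transcription factors, which direct the patterning of the embryo, had the most members of the lists. Of 227 members, 89 (39.2%) rose and 3 fell in Sham, and 85 (37.4%) rose and 3 fell in PM, with medians of 0.732 and 0.540 points. At least 1 member rose in 53 of the 64 genes in Sham and in 45 in PM. Without Sham replicate 1 there were 82 and 84 higher. The list's unchallenged median was 2.17%, and 45.6% of its 149 members at 1 to under 5% rose in Sham, against 37.3% of all members at that level. The shares in Sham were 26.7% against 8.07% under 1% (45 members) and 27.3% against 29.3% at 5 to under 10% (33 members). In PM the list's shares were 28.9% against 6.84%, 42.3% against 33.9% and 27.3% against 26.5%, from the lowest level class to the highest. The largest rise on average was in Hoxa2 (chr6:52163570-52164626), which went from 7.43% ± 2.61 to 16.7% ± 4.22 in Sham offspring (SD, n = 7 each, limma adjusted p = 4.11e-05). Among PM offspring the level rose from 7.88% ± 2.55 (SD, n = 7) to 17.6% ± 3.72 (SD, n = 8, limma adjusted p = 1.79e-05).

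The largest fall of that list on average was in the same cluster. Hoxa7 (chr6:52216368-52217271) measured 4.81% ± 0.784 in Sham and 3.52% ± 0.734 in Sham-OVA (SD, n = 7 each, limma adjusted p = 0.0132), and 5.26% ± 1.27 in PM (SD, n = 7) and 3.46% ± 0.488 in PM-OVA (SD, n = 8, limma adjusted p = 0.00113). Counts by cluster were made after these values were seen. Of 17 members named for Hoxa genes, 3 rose and 2 fell in Sham and 1 rose and 3 fell in PM, the falls being in Hoxa7 and Hoxa9. Of 18 members named for Hoxd genes, 13 rose in Sham and 11 in PM, and of 15 named for Hoxc genes 8 rose in each, with 0 falls in these clusters. Hoxb genes had 12 members, with 3 and 2 rises and 0 falls.

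Haematopoietic and immune regulators had rises and falls. Of 97 members, 16 (16.5%) rose and 6 (6.19%) fell in Sham, and 17 (17.5%) rose and 6 (6.19%) fell in PM, with medians of 0.0107 and 0.0125 points. Of all members, 2.44% fell in Sham and 2.97% in PM. There were 15 and 17 higher without Sham replicate 1. With centred libraries 18 rose and 5 fell in Sham, and 21 rose and 1 fell in PM. Over all alternative fits the rises ranged from 10 to 18 in Sham and 11 to 21 in PM. Against all members of the same level, the share that rose was higher under 1% (8 of 57, 14.04% in each kind of offspring, against 8.07% in Sham and 6.84% in PM). It was lower at 1 to under 5%, with 5 of 32 (15.6%) in Sham and 6 (18.8%) in PM against 37.3% and 33.9%. At 5 to under 10% it was 3 of 8 (37.5%) in each, against 29.3% and 26.5%. The largest average rise was that of Pax5. The largest average fall was in Stat5a, a signal transducer of cytokine receptors, at its gene start (chr11:100860329-100861155). It measured 2.82, 3.23 and 3.44% (lowest, median and highest) in Sham and 1.19, 1.72 and 2.20% in Sham-OVA, without overlap, and fell by 1.53 points (limma adjusted p = 0.000419). Among PM offspring the level fell by 1.21 points (limma adjusted p = 0.00289), although PM-OVA replicate 6 at 5.32% lay above all PM libraries. Cebpb, a factor of myeloid cells singled out after its values were seen, had its 1 member lower in each kind of offspring.

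The remaining lists had shares near or below those of all members. Of 65 members of the DNA methylation and Polycomb machinery, 6 rose in Sham, and 2 rose and 1 fell in PM, with medians of 0.0444 and 0.0334 points. The rises in PM ranged from 0 to 3 with a library left out and were 4, with 0 falls, with centred libraries. Those in Sham ranged from 3 to 9 over all alternative fits. The list's largest average difference was in Ezh1 (1.15 points in Sham, limma adjusted p = 0.0736, and 1.37 points in PM, limma adjusted p = 0.054). There PM-OVA replicate 2 stood at 13.1%, with the other PM-OVA libraries at 7.88 to 9.32%. Of 36 members of tumour suppressor genes with CpG island promoters, 6 (16.7%) rose in each kind of offspring and 0 fell, with medians of 0.0835 and 0.0399 points. Within this list, 2 of the 29 under 1% without OVA (6.90%) rose in each, against 8.07% (Sham) and 6.84% (PM) of all members at that level, and 4 of the 7 at 1 to under 5% (57.1%), against 37.3% and 33.9%. The largest rise on average was in Cdh13, a cadherin without a cytoplasmic tail, which went from 2.15% ± 0.437 to 5.13% ± 1.68 in Sham offspring (SD, n = 7 each, limma adjusted p = 0.000477) and rose by 2.95 points in PM (limma adjusted p = 0.000234). The list's lowest average difference was in Cdkn2a, at -0.479 points in Sham (limma adjusted p = 0.665) and -0.552 points in PM (limma adjusted p = 0.162). Its Sham mean leaned on replicate 4 at 5.28% (others 0.314 to 1.74%), and the medians were 1.13% in Sham and 1.03% in Sham-OVA. In PM, replicate 6 stood at 2.74% (others 0.922 to 1.51%).

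**Figure D5:**
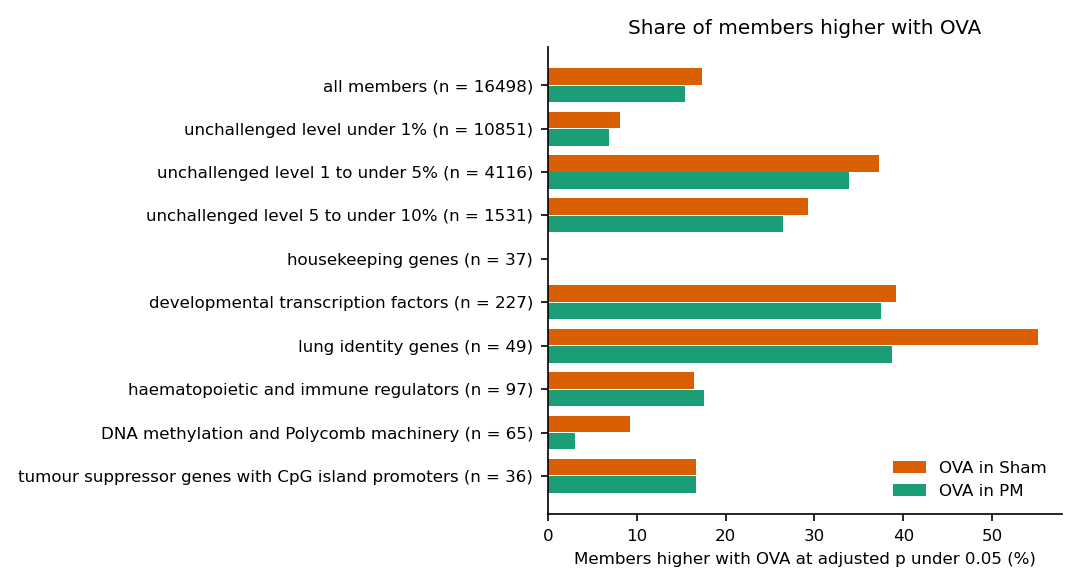
Share of members higher with OVA at a limma adjusted p under 0.05 (x axis, in %), for all members, for classes of unchallenged level and for the 6 gene lists, in Sham (orange) and PM offspring (green). Bars start at 0, and lung identity genes reach 55.1% in Sham while housekeeping genes are at 0.

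Maternal exposure was compared without and with OVA. For PM against Sham, 0 members were called and 0 had a limma adjusted p under 0.05, against 0 of all tested windows by either rule. At an unadjusted p under 0.05 there were 1051 members (6.37%), against 5.79% of all tested windows. For PM-OVA against Sham-OVA, a comparison of libraries that the rule did not use, 0 members were called and 0 had a limma adjusted p under 0.05, and 1023 (6.20%) had an unadjusted p under 0.05, against 5.96% of all tested windows. Without Sham replicate 1 the counts of members were again 0, and 1 of all tested windows had a limma adjusted p under 0.05 for PM against Sham. The median difference was 0.00842 points without OVA and -0.0361 points with OVA, and 97.8% and 97.2% of members differed by less than 1 point.

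The smallest p without OVA belonged to Arhgap22, which encodes a GTPase-activating protein, at its gene start (chr14:33319550-33319940). It measured 0.477, 1.07 and 3.35% (lowest, median and highest) in Sham and 0, 0.367 and 0.610% in PM, with overlap and a limma adjusted p of 0.696. With OVA it belonged to a window of Btg4 that holds the starts of the microRNA genes Mir34b and Mir34c (chr9:51103022-51103871). It measured 2.26, 2.90 and 3.86% in Sham-OVA and 1.64, 1.96 and 2.55% in PM-OVA, with overlap (limma adjusted p = 0.676). Unchallenged levels there were 1.92% ± 0.223 in Sham and 2.33% ± 0.508 in PM (SD, n = 7 each). Neither window passed the threshold.

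Whether the response to OVA depended on the dam was tested by the interaction. It gave 0 called members and 0 with a limma adjusted p under 0.05, against 0 of all tested windows by either rule, and 1029 members (6.24%) with an unadjusted p under 0.05, against 7.4% of all tested windows. Without Sham replicate 1 the counts of 0 were unchanged. The median difference between the responses was -0.0504 points. The smallest p was in an intronic window of Gata4, a factor of heart and endoderm development (chr14:63268769-63269939). It measured 2.59, 3.55 and 5.42% (lowest, median and highest) in Sham, 5.65, 6.24 and 7.82% in Sham-OVA, 4.04, 5.63 and 6.56% in PM and 3.24, 4.72 and 5.93% in PM-OVA. OVA moved it by 2.55 points (Sham) and -0.65 points (PM), and the limma adjusted p of the interaction was 0.496. That p ranged from 0.224 to 0.752 when single libraries were left out.

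The members at the extremes of spread were described without a test. The widest range belonged to Gm3020 (48.8 points over the 29 libraries), followed by Gm28308 (47.1 points). Next was a window just before the start of Samd1 (32.1 points), at 32.1% in Sham replicate 1 and at most 2.60% in the other libraries, followed by the non-coding 2410018L13Rik (29.7 points). The latter, with 20.9% of its stretches of 100 bases repeated, measured 6.28% ± 2.97 in Sham, 11.3% ± 5.15 in Sham-OVA and 13.1% ± 4.02 in PM (SD, n = 7 each), and 19.5% ± 7.98 in PM-OVA (SD, n = 8). Its limma adjusted p for PM exposure was 0.805 without and 0.816 with OVA. Bcat1 came next (28.3 points). The lowest maxima were those of Tagap1 (listed at 0 throughout, with 79.8% of its stretches of 100 bases repeated in up to 2 copies), Nutf2 (0.106%), Ahctf1 (0.129%), A230060F14Rik (0.138%, at the start of Fbxo7) and Epc2 (0.144%), all but Epc2 holding a gene start.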

How the data were processed

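Genomic DNA of lung homogenate was enzymatically converted with an unmethylated lambda spike, trimmed with Trim Galore and called with the DRAGEN methylation pipeline against GRCm38, per the labels and methods. In SeqMonk the authors binned percentages per base into windows of 100 CpGs with at least 10 informative CpGs, overlapping Ensembl genes. The deposited table holds percent methylation per window and library, with no read counts, so depth is unknown here and no intervals for counting are given. Windows that share CpG calls with neighbours are not independent.

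Members and gene lists were chosen with earlier results of these data known. Percentages were transformed to log2((percent + 1)/(101 - percent)) and fitted with limma 3.58.1 (R 4.3.3) over the 4 groups and 29 libraries, with Benjamini-Hochberg adjustment over all 259167 windows tested. A window needed at least 3 values in each group. Differences in points are differences of group means on the percent scale. A call needed an adjusted p below 0.05 plus at least 10 points between group means. The study's methods give an edgeR test, which models counts and so was not run on these percentages.

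Named windows were, for 1 window per gene name, the called members with the largest rises and falls after OVA (filled from members under an adjusted p of 0.05 where fewer than 4 were called), the smallest p of the exposure and interaction contrasts, the extremes of range, maximum and unchallenged level, and the largest rise and fall, averaged over Sham and PM, in each of the 6 gene lists. Some of these are not reported here. Sequence and annotation were GRCm38 with GENCODE M21, read with pysam 0.24.0 in Python 3.11.15 (numpy 2.4.6, pandas 2.3.3, numba 0.67.0, matplotlib 3.10.9). Tested on simulated data for OVA in Sham over 258503 windows, the fit found 27, 42, 49 and 49 of 50 windows raised by 1, 2, 5 and 12 points, and 9 of 258303 unchanged windows passed.

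Alternatives were other offsets, the percent scale, centred libraries, limma's trend, only the groups compared, other level, length and difference limits, a replicate block and each library left out. Leaving out repeated windows or those labelled Galnt2l or Fgfr2, counts and level classes for windows chosen on the other kind of offspring, and the list counts under each fit, were added after seeing the data. Same-numbered libraries of different groups are not stated to share anything.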

Additional observations from a re-analysis of the deposited data

Results flagged for a closer look

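In 28 of the 152 groups of the 38 named windows, a single library lay far from the rest of its group. Such a gap arises in about 1 in 20 ordinary groups by chance, a rate that does not hold here, since some windows were chosen for a wide range or a low maximum, 7 groups had equal values throughout and in 5 every other library was at 0. No explanation was tested.

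Among windows described for their OVA response, Gm28308 stood at 34.9% in PM-OVA replicate 8 (others 17.3 to 21.4%) and Bcat1 at 30.3% in Sham-OVA replicate 6 (others 11.8 to 15.4%). Gm3020 stood at 18.8% in Sham-OVA replicate 2, 3.19% in PM replicate 7 and 48.8% in PM-OVA replicate 3, with the other PM-OVA libraries at 1.53 to 20.4%. Lrrfip1 stood at 9.60% in PM-OVA replicate 2 (others 3.12 to 5.40%). Scarf2 was low in Sham replicate 2, at 4.72% (others 10.4 to 11.6%), and the 5S ribosomal RNA window labelled Galnt2l was high in Sham-OVA replicate 3, at 12.1%. Stat5a stood at 5.32% in PM-OVA replicate 6 (others 1.46 to 2.47%), Ezh1 at 13.1% in PM-OVA replicate 2 and Hoxa7 at 6.41% in Sham replicate 7.

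Samd1 stood at 32.1% in Sham replicate 1 (others 0 to 1.70%), and at the lower values of 1.85% in Sham-OVA replicate 6, 0.986% in PM replicate 5 and 2.60% in PM-OVA replicate 1. Cdkn2a stood at 5.28% in Sham replicate 4 and 2.74% in PM replicate 6, and Arhgap22 at 3.35% in Sham replicate 7. Btg4 was low in Sham replicate 5 (1.475%), Ppia in Sham replicate 2 (1.24%) and the Galnt2l window at Spata2l in PM replicate 7 (8.10%).

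The remaining values were near 0. Ahctf1 was at 0.0625% in Sham-OVA replicate 5 and 0.0556% in PM replicate 4, Aldoa at 0.260% in PM replicate 4 and 1.16% in PM-OVA replicate 6, Nutf2 at 0.0909% in Sham-OVA replicate 1, and A230060F14Rik at 0.0833% in PM replicate 5 and 0.130% in PM-OVA replicate 1.

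Outside the members, 1224 Y chromosome windows had a value in Sham replicate 1, against 29 to 46 in the other libraries.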

How the results depend on the processing

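Counts of called members depended mainly on the limits. For OVA in Sham (6 called), a minimum difference of 5 points gave 87, none gave 3263, an adjusted p under 0.000001 gave 2, and unchallenged limits of 5% and 15% gave 1 and 18. For OVA in PM (4 called) the same settings gave 59, 3035, 1, 2 and 14. With a library left out, 5 (without Sham-OVA replicate 6) to 9 (without Sham-OVA replicate 7) were called in Sham and 4 to 5 in PM. Members with an adjusted p under 0.05 numbered 2095 and 1949 on the percent scale and 87 and 63 at an adjusted p under 0.000001, and ranged from 2905 to 3282 in Sham and 2801 to 3104 in PM with a library left out. Among members, PM exposure and the interaction gave 0 under every alternative run.

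With the replicate number as a block, 6 and 4 members were called and 3292 and 2908 passed, with 0 elsewhere. Replicate numbers were those of the sample titles. Same-numbered libraries did not deviate together among members (correlations of -0.0223 to 0.0320 over 42 pairs), so the numbers were not taken as a pairing. The names of some OVA libraries carry other numbers, and a pairing by those was not tested. The level of the members, as the median in Sham, Sham-OVA, PM and PM-OVA, became 1.497, 1.84, 1.51 and 1.77% as a mean over members, 0.359, 0.456, 0.365 and 0.413% for members holding a start, and 0.677, 0.963, 0.693 and 0.900% for those without. With a library left out it ranged from 0.422 to 0.458%, 0.560 to 0.605%, 0.436 to 0.464% and 0.525 to 0.545%. Of 1146 alternatives for 31 results of named windows, 19 lost significance, 1 gained it and 0 reversed. Levels near 0 and the unknown depth limit what small differences can show.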
